A study of Mus musculus with 12 samples.

Results

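Interferon-stimulated genes, 9 in number, were followed across the ventral CA1 field of the mouse hippocampus after strong synaptic stimulation. They were the interferon-induced effector genes Ifit1, Ifit2, Ifit3, Isg15, Oasl2, Ifitm3 and Bst2 and the transcription factor genes Irf1 and Irf7. The members came from a list of symbols with no threshold on a measured value, drawn up with earlier results of these data known, and all 9 were found among the 55471 gene IDs of the count table and among the 19492 genes with enough reads to be tested. All mice were wild-type C57BL/6J males, 5 to 7 weeks old. Each of the 12 libraries pooled 6 acute slices of 400 µm, which had rested for at least 3 h before the experiment. Every slice gave a piece of 1 mm2 from around the electrodes. Stimulated slices were frozen 30 min after stimulation. In the STET group late long-term potentiation was induced by strong tetanization (3 trains, each of 100 pulses at 100 Hz). STET_S100 slices received the same tetanization together with 100 pulses at 100 Hz to the basolateral amygdala. STET_S200 slices received the tetanization together with amygdala stimulation that the labels give as 200 Hz, and in brackets as 100 pulses at 100 Hz, so its rate is stated in conflicting ways. Control slices had the same electrodes and basal stimulation only, and no such time is recorded for them. Each group had 3 libraries, and the protocol took 4 slices from a mouse, 1 for each group, but the labels do not say which libraries share mice.

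Interferons are secreted proteins that cells release when they sense viral or other nucleic acids. Type I interferons bind the receptor formed by Ifnar1 and Ifnar2, whose kinases Jak1 and Tyk2 activate transcription factors that enter the nucleus. Complexes that hold Irf9 bind the interferon-stimulated response element, while interferon gamma acts through the interferon-gamma-activated site. The genes switched on in this way encode antiviral effectors and the signalling proteins themselves, and in brain tissue microglia, astrocytes, endothelial cells and neurons can all express them.

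The start regions of the members were searched for both elements because they are the sequence feature that defines the pathway. The RefSeq promoter windows of assembly GRCm38.p6 run from 250 bases before to 50 bases after each start. The response element was searched by its core, GAAA, any 2 bases and GAAA again, and the gamma-activated site as TTCNNNGAA, each on both strands. All 9 members had a window, and Ifit2 and Irf1 had 2. The core was present in 5 of the 9 members, Ifit1, Ifit3, Isg15, Ifitm3 and Bst2, against 3.99% of the 27025 genes with a window. The gamma-activated site was present in 4 of the 9, Ifit2, Irf1, Ifitm3 and Bst2, against 9.55% of genes. Irf7 and Oasl2 held neither string in their windows, which says only that these letters are not there. The matching stretches of the response element in Ifit1, Ifit3, Isg15 and Bst2 are shown because their spacing differs between genes, and that of Irf1 because it holds a gamma-activated site and no core. They are given 5′ to 3′ on the gene's own strand, with every base of a match to the named motif in capitals.
Ifit1 (chr19:34640770-34640828, plus strand, 2 core matches from base -104 to -76): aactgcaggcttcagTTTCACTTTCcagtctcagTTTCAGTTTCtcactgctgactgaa
Ifit3 (chr19:34583358-34583431, plus strand, 2 core matches from base -156 to -113): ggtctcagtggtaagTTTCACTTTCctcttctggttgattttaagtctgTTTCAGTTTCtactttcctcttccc
Isg15 (chr4:156200860-156200911, minus strand, 3 overlapping core matches from base -78 to -57): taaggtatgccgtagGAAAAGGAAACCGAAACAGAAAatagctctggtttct
Bst2 (chr8:71537572-71537617, minus strand, 2 overlapping core matches from base -130 to -115): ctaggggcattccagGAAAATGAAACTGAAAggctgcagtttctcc
Irf1 (chr11:53769909-53769947, plus strand, 1 gamma-activated site from base -90 to -82): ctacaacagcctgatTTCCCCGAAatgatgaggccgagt
Ifit1 and Ifit3 each carried a pair of separate cores in the reverse orientation, and the cores of Isg15 and Bst2 ran into each other without a gap. In Ifitm3 the 2 cores lay just after the annotated start, at bases 3 to 29.

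Libraries held 36.3 to 52.8 M counted reads, and counts were scaled to the adjusted library total as CPM, counts in each 1 M counts. Genes known to follow neuronal activity served as a check of the labels. Arc averaged 258 ± 57.9 CPM in STET, 270.0 ± 117 CPM in STET_S100, 228 ± 43.6 CPM in STET_S200 and 96.7 ± 17.6 CPM in Control (SD, n = 3 each). Arc, Npas4, Fos and Junb were higher than Control without overlap in all 3 stimulated groups, whereas Egr1 did not overlap Control in STET but did in STET_S100 and STET_S200. None of these 5 genes, and no other of the 19492, passed an adjusted p of 0.05 in any comparison by edgeR's quasi-likelihood F test. Markers of CA1 pyramidal neurons, summed over 7 genes, lay between 5532 and 5794 CPM in STET, 5628 and 5655 CPM in STET_S100, 5681 and 5755 CPM in STET_S200 and 5383 and 6134 CPM in Control. Most of this sum was Camk2a, at 3300 to 3980 CPM, so it says little of the less abundant markers. Among those, Fibcd1 ran from 290 to 437 CPM. Libraries stood apart in several marker sets. Markers of choroid plexus and ependymal cells, summed over 12 genes, ran from 465 to 3372 CPM in STET, 130 to 4179 CPM in STET_S100, 100.0 to 177 CPM in STET_S200 and 395 to 1937 CPM in Control. In STET_S200 most of this sum was Enpp2, at 78.5 to 108 CPM. The 12 genes did not all move together. Ccdc153 and Tmem212 were lowest in Control 2, at 0.682 and 0.218 CPM, where the choroid plexus gene Ttr had 1167 CPM. The fat-cell gene Fabp4 exceeded 1 CPM in 5 libraries (STET 3, STET_S100 1, STET_S200 2, STET_S200 3 and Control 3), at 7.08 to 8.46 CPM, and was at or below 0.275 CPM in the other 7. Markers of dentate gyrus and CA3, summed over 5 genes, had 73.2, 100.0 and 79.9 CPM in STET, 105.1, 96.6 and 74.9 CPM in STET_S100, 118.3, 88.5 and 36.5 CPM in STET_S200, and 104.9, 95.6 and 44.4 CPM in Control, so STET_S200 3 and Control 3 were the lowest and STET_S200 1 the highest.

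All 9 genes were transcribed in every library, at low to moderate levels. Per kilobase of exon, Ifitm3 was highest at 9.31 ± 1.36 CPM per kb over the 12 libraries (SD), followed by Irf1 at 5.76 ± 1.17 and Ifit3 at 4.36 ± 0.70 CPM per kb. Bst2 (2.77), Ifit2 (2.41), Ifit1 (1.94) and Isg15 (1.88 CPM per kb) came next, and neighbours among these 4 differed by less than the larger of their SDs over libraries. Irf7 at 0.307 and Oasl2 at 0.179 CPM per kb were lowest. These are levels per length, and all values that follow are CPM without division by length.

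No member passed the adjusted threshold in any comparison with Control, and neither did any other gene (0% of genes called) by edgeR. Limma-voom and DESeq2 also called 0 members, where limma-voom called 0% of all genes and DESeq2 0.00513% in STET, 0.0154% in STET_S100 and 0.0205% in STET_S200. At an unadjusted p under 0.05 the members called were 0 of 9 in STET, 0 of 9 in STET_S100 and 0 of 9 in STET_S200, against 3.5%, 5.16% and 5.92% of all genes by edgeR. Limma-voom and DESeq2 each put 1 member, Irf1, past the unadjusted threshold in STET_S200. The share of all genes past it was not computed for either method. The 9 genes had a median log2 fold change of 0.01 in STET, of 0.09 in STET_S100 and of 0.03 in STET_S200, where the medians over all genes were within 0.00187 of 0. Fitted changes were positive for 5, 8 and 5 of the 9 genes in STET, STET_S100 and STET_S200. The members whose 3 stimulated libraries all lay above Control were 0 in each group, against 4.69% of genes in STET, 5.19% in STET_S100 and 5.73% in STET_S200. Those that lay wholly below Control were 0 in STET, 0 in STET_S100 and 1 in STET_S200 (Irf7), against 4.2%, 4.93% and 5.28% of genes. These 3 comparisons share the Control libraries, so their values are not independent of each other.

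**Figure D1:**
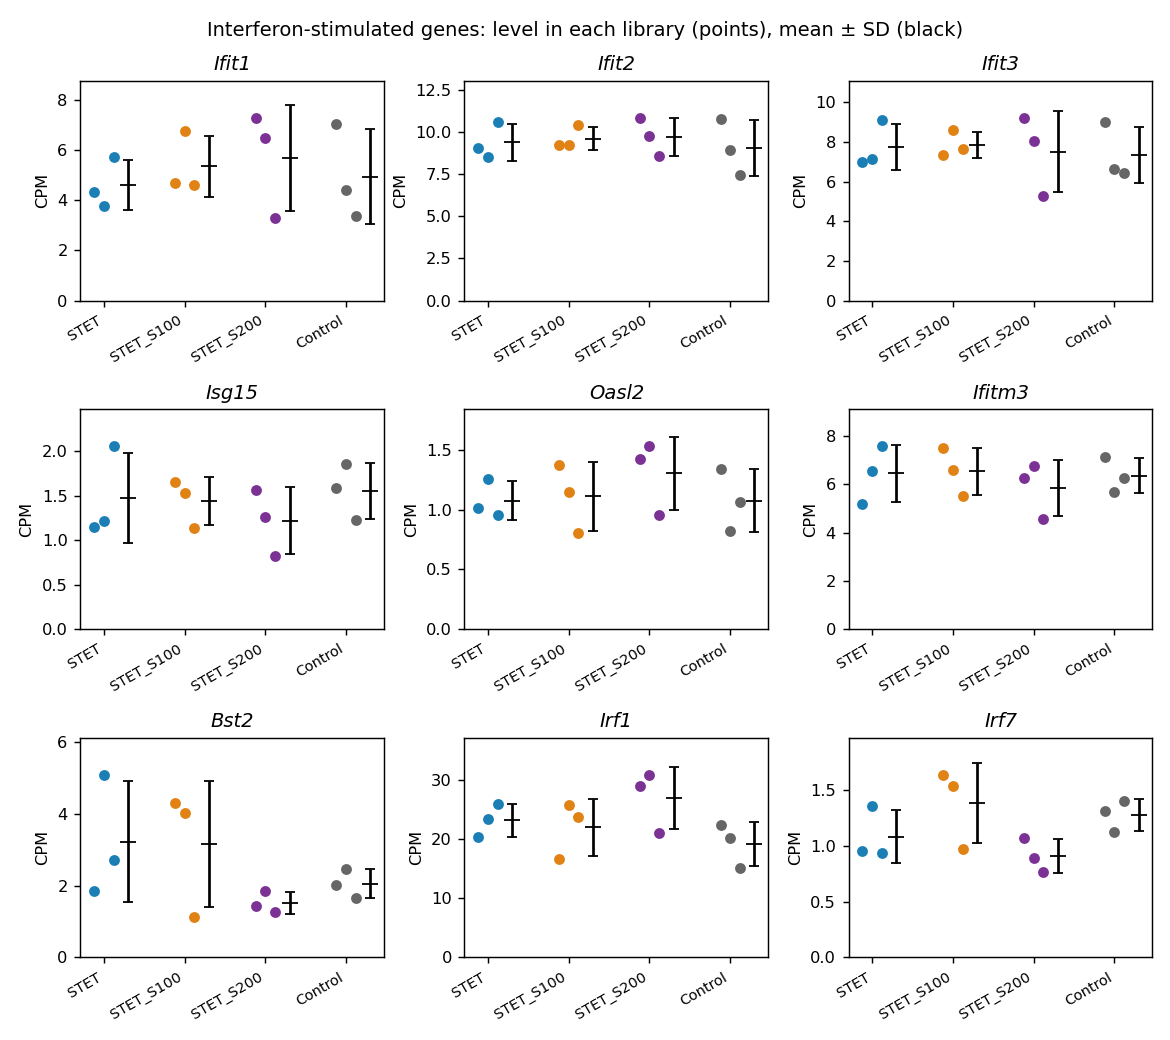
Level of each of the 9 interferon-stimulated genes in CPM (vertical axis, linear, from 0) in each library of STET, STET_S100, STET_S200 and Control (points), with the group mean and SD in black (3 libraries a group). The ranges of stimulated and Control libraries overlap in every panel except for Irf7 in STET_S200, whose 3 libraries lie at 0.765 to 1.07 CPM, below the Control libraries at 1.12 to 1.39 CPM.

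Ifit1, Ifit2 and Ifit3 encode cytoplasmic proteins with tetratricopeptide repeats that bind viral RNA or other proteins to block translation, and they are among the strongest responders to type I interferon. Ifit1 had 4.33, 3.78 and 5.73 CPM in STET, 4.68, 6.77 and 4.63 CPM in STET_S100, 7.30, 6.48 and 3.31 CPM in STET_S200, and 7.05, 4.39 and 3.39 CPM in Control. The Control libraries alone spanned 2.08-fold, and every stimulated library but STET_S200 1 and STET_S200 3 fell within their range. The log2 fold change of Ifit1 was -0.12 ± 0.35 in STET, 0.10 ± 0.35 in STET_S100 and 0.20 ± 0.35 in STET_S200 (± SE of the fit). The 95% intervals of these changes reached from 0.536-fold to 1.97-fold over the 3 comparisons, so a change beyond about that size in either direction is outside them.

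Ifit2 was the steadiest member. It had 9.08, 8.52 and 10.6 CPM in STET, 9.25, 9.22 and 10.4 CPM in STET_S100, 10.9, 9.75 and 8.61 CPM in STET_S200, and 10.8, 8.95 and 7.46 CPM in Control. All groups overlapped, and the 3 log2 fold changes against Control were 0.05 ± 0.13, 0.08 ± 0.13 and 0.10 ± 0.13 for STET, STET_S100 and STET_S200. Their intervals lay between 0.859-fold and 1.29-fold, the narrowest of the 9 genes.

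Ifit3 had 6.99, 7.14 and 9.09 CPM in STET, 7.34, 8.59 and 7.67 CPM in STET_S100, 9.23, 8.04 and 5.28 CPM in STET_S200, and 8.98, 6.63 and 6.42 CPM in Control. STET_S200 held both the highest and the lowest library, and its log2 fold change was 0.03 ± 0.19, beside 0.07 ± 0.19 in STET and 0.09 ± 0.19 in STET_S100. Ifit3 has a close paralog, Ifit3b, and reads of the pair may have been split between them by the authors' counting. Ifit3b ranged from 2.87 to 5.03 CPM and differed from Control by 0.01 ± 0.17 in STET, 0.23 ± 0.17 in STET_S100 and 0.00187 ± 0.168 in STET_S200 on the log2 scale.

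Isg15 encodes a ubiquitin-like protein that is attached to other proteins in interferon-treated cells, and it was measured on 30 to 95 reads per library. It had 1.152, 1.21 and 2.06 CPM in STET, 1.65, 1.53 and 1.14 CPM in STET_S100, 1.57, 1.27 and 0.820 CPM in STET_S200, and 1.59, 1.86 and 1.23 CPM in Control. Its fitted change was negative in all 3 groups, at -0.08 ± 0.26, -0.11 ± 0.26 and -0.35 ± 0.27 for STET, STET_S100 and STET_S200 on the log2 scale (± SE), and all groups overlapped. Of the 4 genes of Isg15 conjugation, Uba7 (its activating enzyme), Ube2l6 (its conjugating enzyme), Herc6 (the mouse ligase) and Usp18 (which removes it), 0 were called in any comparison with Control. Ube2l6 averaged 2.55 ± 0.18, 2.79 ± 0.32 and 2.72 ± 0.32 CPM in STET, STET_S100 and STET_S200, against 2.32 ± 0.29 CPM in Control, and its smallest unadjusted p was 0.089.

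Oasl2 encodes a member of the oligoadenylate synthetase family with ubiquitin-like domains, and 30 to 71 reads per library were counted for it. It had 1.01, 1.26 and 0.955 CPM in STET, 1.38, 1.149 and 0.806 CPM in STET_S100, 1.43, 1.53 and 0.957 CPM in STET_S200, and 1.34, 0.818 and 1.07 CPM in Control. Control and the stimulated groups overlapped, and the largest fitted change was 0.27 ± 0.25 on the log2 scale, in STET_S200. Its changes in STET and STET_S100 were -0.02 ± 0.25 and 0.03 ± 0.25.

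Ifitm3, a membrane protein that blocks the entry of viruses from endosomes, is also expressed by resting endothelial and glial cells. It had 5.20, 6.57 and 7.59 CPM in STET, 7.49, 6.61 and 5.54 CPM in STET_S100, 6.25, 6.77 and 4.57 CPM in STET_S200, and 7.15, 5.67 and 6.29 CPM in Control. No group stood apart, and the log2 fold changes were 0.01 ± 0.17 in STET, 0.04 ± 0.17 in STET_S100 and -0.12 ± 0.17 in STET_S200.

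**Figure D2:**
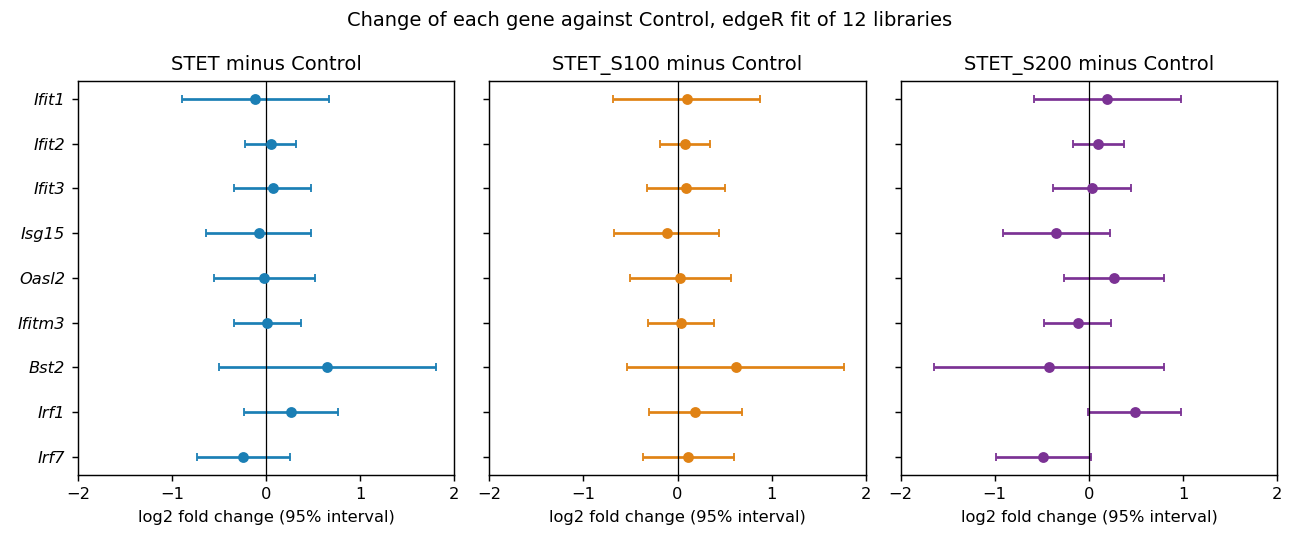
Log2 fold change of each gene (rows) in STET, STET_S100 and STET_S200 against Control (panels), with 95% intervals from 1 edgeR fit of the 12 libraries. Every interval includes 0, and the intervals of Ifit2 are the narrowest and those of Bst2 the widest, from -1.64 to 1.80.

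Bst2, or tetherin, holds budding enveloped viruses at the cell surface, and it was the most variable of the 9 genes. It had 1.87, 5.11 and 2.73 CPM in STET, 4.33, 4.05 and 1.14 CPM in STET_S100, 1.45, 1.87 and 1.26 CPM in STET_S200, and 2.02, 2.48 and 1.67 CPM in Control. The 3 libraries STET 2, STET_S100 1 and STET_S100 2 were above 4 CPM and no other exceeded 2.73 CPM. The log2 fold changes against Control were 0.65 ± 0.51 in STET, 0.62 ± 0.51 in STET_S100 and -0.42 ± 0.54 in STET_S200, with unadjusted p of 0.236, 0.254 and 0.451 and adjusted p of 1, 0.922 and 0.934. The STET change was 0.16 without STET 2, and the STET_S100 change was 0.32 without STET_S100 1 and 1.02 without STET_S100 3 (unadjusted p = 0.0125, adjusted p = 0.716 by edgeR). Its biological coefficient of variation was 41.4%, where the trend over genes of its level was 16.8%.

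The level of Bst2 moved with the choroid plexus RNA of the libraries. Ttr, the transthyretin gene that choroid plexus epithelium expresses at very high levels, had 254, 2243 and 434 CPM in STET, 1841, 2798 and 12.2 CPM in STET_S100, 5.14, 1.73 and 40.6 CPM in STET_S200, and 233, 1167 and 183 CPM in Control. The 3 libraries highest in Bst2 were the 3 highest in Ttr. Across the 12 libraries the log2 CPM of Bst2 correlated with the mean log2 CPM of the 12 choroid plexus and ependymal markers at Pearson's r = 0.893 and Spearman's rho = 0.867, with two-sided permutation p of 0.00024 and 0.00056 and Benjamini-Hochberg values over the 9 genes of 0.00216 and 0.00504. Without STET 2 and STET_S100 2, the libraries farthest from the median of the marker score, r was 0.823. After subtraction of the group means it was 0.898, and among the 7 libraries low in Fabp4 it was 0.955. The 5 libraries with Fabp4 above 1 CPM were too few for a value of their own. With the marker score as a covariate the change of Bst2 was 0.38 in STET (unadjusted p = 0.0869), 0.17 in STET_S100 (unadjusted p = 0.43) and 0.60 in STET_S200 (unadjusted p = 0.0389), with adjusted p of 1, 0.941 and 1 by edgeR, so the sign turned in STET_S200. The score was 0.16 to 1.29 in STET_S200 and 2.38 to 3.82 in Control, without overlap. Group and score therefore cannot be told apart in that comparison, and its value with the covariate is no corrected estimate. In such pooled tissue, more cells of a type and more RNA per cell cannot be told apart.

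Of the other members, Irf7 also went with the choroid markers, at r = 0.743 and rho = 0.699 with permutation p of 0.00738 and 0.0139, and the Benjamini-Hochberg values over the 9 genes were 0.0332 and 0.0625. Its r was 0.652 without STET 2 and STET_S100 2, 0.667 after subtraction of group means and 0.777 in the 7 libraries low in Fabp4. For the remaining 7 genes r lay between -0.373 for Irf1 and 0.396 for Isg15, with adjusted values of 0.418 or more. These values moved with the libraries used, and r of Irf1 was -0.676 without STET 2 and STET_S100 2 and that of Ifit2 was -0.788 in the 7 libraries low in Fabp4.

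**Figure D3:**
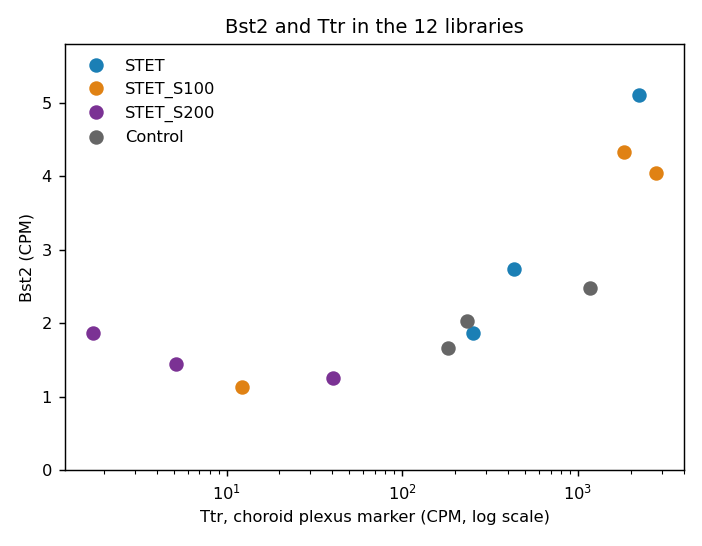
Bst2 (vertical axis, CPM) against the choroid plexus marker Ttr (horizontal axis, CPM, log scale) in the 12 libraries, coloured by group. The 3 libraries above 4 CPM of Bst2 have 1841 to 2798 CPM of Ttr, while the 3 STET_S200 libraries have 1.73 to 40.6 CPM of Ttr and 1.26 to 1.87 CPM of Bst2.

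Irf1 encodes the transcription factor that carries much of the response to interferon gamma and is also induced by cytokines and NF-kappaB. It was the most abundant member in CPM and had 20.4, 23.4 and 26.0 CPM in STET, 16.7, 25.8 and 23.8 CPM in STET_S100, 29.0, 31.0 and 21.0 CPM in STET_S200, and 22.5, 20.2 and 15.1 CPM in Control. The 2 highest of all 12 libraries were STET_S200 1 and STET_S200 2, but STET_S200 3 lay inside the Control range. The edgeR log2 fold change was 0.27 ± 0.22 in STET (unadjusted p = 0.255), 0.19 ± 0.22 in STET_S100 (unadjusted p = 0.409) and 0.48 ± 0.22 in STET_S200 (unadjusted p = 0.0545), with adjusted p of 1, 0.941 and 0.828 by edgeR. In STET_S200 the 95% interval ran from -0.01 to 0.98. In the 7 libraries low in Fabp4, where STET_S200 is a single library assumed to vary like the other groups, the change was 0.44 with an unadjusted p of 0.00154 (adjusted, 0.999). With its biological coefficient of variation of 18.2%, Irf1 varied more between libraries of a group than the trend for genes of its level, 7.31%. An opposite-strand gene shares 3.4% of its exonic length, and the strand setting of the counting is not given in the sources used here.

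Irf7, the factor that amplifies type I interferon production, was measured on 28 to 82 reads per library. It had 0.953, 1.35 and 0.933 CPM in STET, 1.63, 1.53 and 0.971 CPM in STET_S100, 1.07, 0.888 and 0.765 CPM in STET_S200, and 1.31, 1.12 and 1.39 CPM in Control. All 3 STET_S200 libraries lay below all 3 Control libraries, as did 5.28% of all genes. The log2 fold change in STET_S200 was -0.48 ± 0.24 (unadjusted p = 0.0605, adjusted p = 0.828 by edgeR), beside -0.24 ± 0.23 in STET and 0.11 ± 0.23 in STET_S100. The choroid plexus and ependymal marker sum in the same STET_S200 libraries was 100.0 to 177 CPM, against 395 to 1937 CPM in Control. With the marker score as a covariate the change of Irf7 in STET_S200 was -0.17 (unadjusted p = 0.533 by edgeR). The score did not overlap between these groups, so group and score cannot be told apart here. In the 7 libraries low in Fabp4, where STET_S200 is a single library, the change of Irf7 was -0.19. Phrf1, on the opposite strand, shares 1.19% of the exonic length of Irf7, and the strand setting of the counting is not given.

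Amygdala stimulation added to tetanization was assessed by comparing the stimulated groups with each other. In STET_S100 minus STET, STET_S200 minus STET and STET_S200 minus STET_S100 no member and no other gene passed the adjusted threshold (0% called). At an unadjusted p under 0.05 the members called were 0, 0 and 1 of 9, against 3.16%, 4.56% and 5.2% of genes. With DESeq2 they were 0, 1 (Bst2) and 2 (Irf7 and Bst2), but the share of all genes past that threshold by DESeq2 was not computed. The single member by edgeR was Irf7 in STET_S200 minus STET_S100, with -0.60 ± 0.24 on the log2 scale (unadjusted p = 0.0221, adjusted p = 0.956 by edgeR). It averaged 0.908 ± 0.153 CPM in STET_S200 and 1.38 ± 0.36 CPM in STET_S100 (SD, n = 3 each), and the ranges overlapped through STET_S100 3. With the choroid score as a covariate this difference was -0.16.

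Bst2 in all 3 STET_S200 libraries was below all 3 STET libraries, which 5.76% of genes did in that direction. The ranges all but touched, with 1.865 CPM in STET_S200 2 and 1.867 CPM in STET 1. The difference was -1.07 ± 0.52 on the log2 scale against STET and -1.04 ± 0.52 against STET_S100 (unadjusted p = 0.0706 and 0.0766), and the difference from STET was -0.58 without STET 2. Both changed sign with the choroid score as a covariate, to 0.22 and 0.42. The score of STET_S200 did not overlap that of STET, and of STET_S100 only STET_S100 3 lay within its range. Group and score are thus hard to tell apart in these comparisons. The medians of the 9 members were 0.02 for STET_S100 minus STET, -0.04 for STET_S200 minus STET and -0.06 for STET_S200 minus STET_S100, with medians over all genes within 0.00409 of 0. For the mean of the 3 stimulated groups minus Control the median was 0.06, and 6 of the 9 genes were positive. No member passed either threshold there (0% of genes called at the adjusted and 5.47% at the unadjusted threshold), and the largest change was that of Irf1 at 0.31 ± 0.18.

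The members varied together in part. Of their 36 pairs, 32 correlated positively across the 12 libraries, with a median r of 0.427 and a range from -0.416 for Irf1 and Irf7 to 0.903 for Ifit1 and Ifit3. These points share library depth and tissue content. Only the 3 pairs among the Ifit genes had an adjusted p under 0.05 over the 36 pairs for Pearson's r. Ifit1 and Ifit3 had r = 0.903 and rho = 0.923 with permutation p of 3e-05 and 5e-05 and adjusted values of 0.00108 and 0.0018, and r was 0.861 without the 2 libraries farthest from the median of Ifit1, 0.956 after subtraction of group means and 0.934 in the 7 libraries low in Fabp4. Ifit1 and Ifit2 had r = 0.79 and rho = 0.867 (permutation p of 0.00227 and 0.00051, adjusted 0.0409 and 0.00612), and 0.678 without the 2 farthest libraries. Ifit2 and Ifit3 had r = 0.771 and rho = 0.888 (permutation p of 0.00346 and 0.0002, adjusted 0.0415 and 0.0036), and 0.752 without the 2 farthest. The 3 genes lie on chromosome 19 within 1 cluster. Correlations this close were not particular to the Ifit genes. Picked as the highest of all tested genes, Herpud1 had r = 0.937 with Ifit1 and 0.932 with Ifit3. Pard6g, picked in the same way, had r = 0.934 with Ifit2.

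The same libraries were extreme for several members. STET_S200 3 was the lowest of the 12 for 5 of the 9 genes (Ifit1, Ifit3, Ifitm3, Irf7 and Isg15), while STET_S200 1 was the highest for all 3 Ifit genes. The share of all genes that were lowest or highest in these libraries was not computed. The members also vary together in part, so these counts cannot be read as a trait of the members. STET_S200 3 had 36.8 M counts and Fabp4 at 7.08 CPM, and STET_S200 1 had 42.7 M counts and Fabp4 at 0.0713 CPM. The dentate gyrus and CA3 markers were lowest of the 12 libraries in STET_S200 3, at 36.5 CPM, and highest in STET_S200 1, at 118.3 CPM. In Control 3, the lowest library for Ifit2 and Irf1, they were next lowest, at 44.4 CPM. These are sums, and only Prox1 and C1ql2 had both extremes in STET_S200 3 and STET_S200 1. Dsp and Iyd were lowest in STET_S200 3 but highest in STET_S100 1 and Control 2. Bok was lowest in STET 1, at 11.8 CPM, and highest in STET_S100 3, at 18.0 CPM. The part of these properties in the members' levels was not tested.

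**Figure D4:**
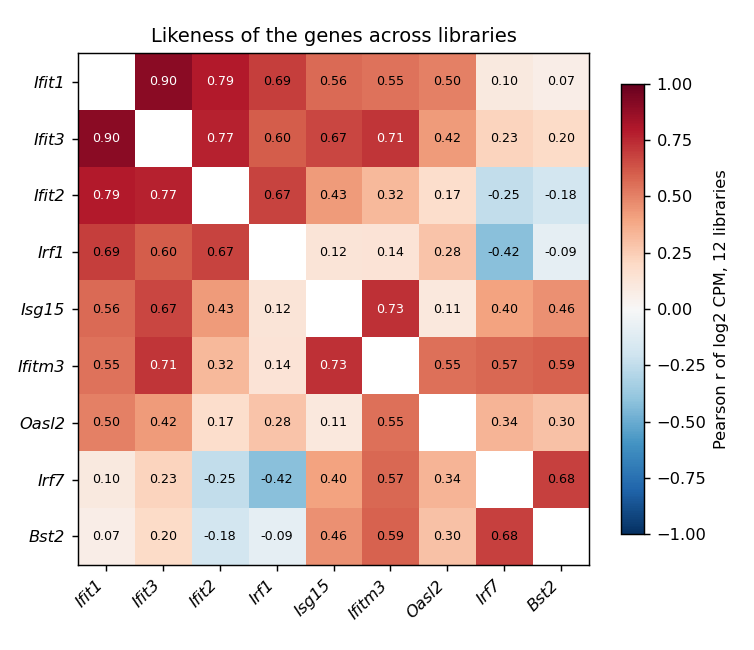
Pearson's r of log2 CPM between each pair of the 9 genes over the 12 libraries (colour from -1 to 1, values printed in the cells). Ifit1, Ifit3 and Ifit2 form the block at 0.77 to 0.90, and Irf7 and Bst2 (0.68) are below 0 with Irf1 and Ifit2.

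Among all tested genes outside the list, those most like the mean of the 9 members over the 12 libraries were Vwa3b (r = 0.905), Npnt (r = 0.896), 4930515G01Rik (r = 0.892), Glis3 (r = 0.883) and Yap1 (r = 0.878). Nearest genes were also ranked for each single member, and those of Irf1 and Bst2 are given here, chosen after their values were seen. Those nearest to Irf1 were Cxcl10, Phlda1, Birc3, Gbp5 and Ccl2, with r from 0.938 to 0.957. Cxcl10 (a chemokine), Gbp5 (a guanylate-binding protein) and Ccl2 (a chemokine) are inflammatory genes, and Birc3 is a known NF-kappaB target. Because they were picked for following Irf1 in these libraries, their own differences between groups are not given as results here. Cxcl10 also stands in the wider list of interferon-stimulated genes, and its values given there are not independent of those of Irf1. Those nearest to Bst2 were Defb11, Lrp10, Igfbp2, Rdh5 and Pla2g5, with r from 0.943 to 0.956, and Igfbp2 is known to be abundant in choroid plexus.

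The rest of the interferon pathway was examined by lists of genes ordered by their role. Usp18, Herc6 and Irf9 stand in more than 1 of these lists. The ligands were at the limit of detection. Of 9 interferon genes, 0 had enough reads to be tested, and Ifna1, Ifna4, Ifnk and Ifnl2 had 0 reads in all 12 libraries. A count of 0 in a library allows up to 3 reads, which is 0.0567 to 0.082 CPM at these depths and covers counting error only. Ifnb1, the gene of interferon beta, had 54 reads in all and at most 11 in a library, a highest level of 0.262 CPM, and Ifng, the gene of interferon gamma, had 4 reads in all. Differences between groups in these ligands were not detectable at this depth.

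Receptor and signalling genes were well expressed, and 0 of 12 were called against Control in any group. Ifnar1 averaged 37.4 ± 0.45 CPM in STET, 37.2 ± 1.28 CPM in STET_S100, 38.1 ± 1.5 CPM in STET_S200 and 38.2 ± 0.55 CPM in Control (SD, n = 3 each). Jak1 had the smallest unadjusted p, 0.0207 in STET_S200 with a log2 fold change of 0.11, and an adjusted p that did not pass. The 12 genes had medians of -0.02, 0.04 and -0.02 in STET, STET_S100 and STET_S200.

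The nucleic acid sensors and adaptors had 0 of 13 tested genes called in each of the 3 groups, with medians of -0.01, -0.04 and 0.01 in STET, STET_S100 and STET_S200. Ddx58, which encodes the RNA sensor RIG-I, averaged 5.15 ± 0.70, 5.12 ± 0.15 and 4.87 ± 0.88 CPM in these groups, against 4.30 ± 0.86 CPM in Control, and its unadjusted p was 0.128 or more. Tlr9, a receptor for DNA in endosomes, averaged 3.01 ± 0.50 CPM in STET_S200 and 3.88 ± 0.96 CPM in Control (unadjusted p = 0.0548). The other 7 interferon regulatory factors had 0 called, with medians of -0.03 in STET, -0.07 in STET_S100 and 0.05 in STET_S200. Irf4 was the nearest of them to the threshold, with 2.67 ± 0.19 CPM in STET_S200 and 2.15 ± 0.34 CPM in Control (unadjusted p = 0.0649).

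A wider list of 41 interferon-stimulated genes beside the members had 37 tested genes, and 0 were called in any comparison with Control. Mx1, Oas2, Oas3 and Zbp1 had too few reads to be tested. The medians of the 37 genes were 0.12 in STET, 0.14 in STET_S100 and 0.04 in STET_S200, with 25, 26 and 25 positive. At an unadjusted p under 0.05 only Adar, the RNA-editing enzyme with an interferon-induced form, was found, lower in STET at -0.11 (unadjusted p = 0.0164), with 172 ± 8.75 CPM in STET against 186 ± 4.32 CPM in Control. The positive genes nearest to the threshold were Oas1a in STET (0.82 ± 0.44, unadjusted p = 0.0769), Trim30a in STET_S100 (0.49 ± 0.24, unadjusted p = 0.0567) and Cxcl10 in STET_S200 (0.95 ± 0.50, unadjusted p = 0.0923), all on the log2 scale and unadjusted. Cxcl10 averaged 13.7 ± 4.67 CPM in STET, 11.7 ± 3.86 CPM in STET_S100 and 18.6 ± 7.59 CPM in STET_S200, against 9.5 ± 5.31 CPM in Control (SD, n = 3 each). Oas1a averaged only 0.289 ± 0.078 CPM in STET and 0.158 ± 0.062 CPM in Control.

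Antigen presentation genes that interferon induces had 0 of 14 called, with 12, 13 and 8 of the 14 positive in STET, STET_S100 and STET_S200 and medians of 0.04, 0.09 and 0.00402. Psme2, a proteasome activator subunit, had the smallest p of the list at 0.0291 unadjusted in STET_S100, where it averaged 17.3 ± 0.27 CPM against 15.6 ± 0.61 CPM in Control. B2m, the light chain of class I molecules, averaged 50.8 ± 2.98, 50.8 ± 3.43 and 46.4 ± 3.95 CPM in STET, STET_S100 and STET_S200, against 47.9 ± 0.70 CPM in Control. Negative regulators of interferon signalling had 0 of 8 called, with 6, 6 and 5 positive and medians of 0.08, 0.20 and 0.08 in the same order of groups. Socs3, an inhibitor of Jak kinases, averaged 73.5 ± 7.43, 72.2 ± 4.69 and 73.2 ± 13.7 CPM in STET, STET_S100 and STET_S200, against 61.0 ± 10.1 CPM in Control, and its unadjusted p was 0.139 or more. Usp18, which blocks the receptor as well as removing Isg15, averaged 0.680 ± 0.163 CPM in STET_S100 and 0.475 ± 0.164 CPM in Control (unadjusted p = 0.197).

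**Figure D5:**
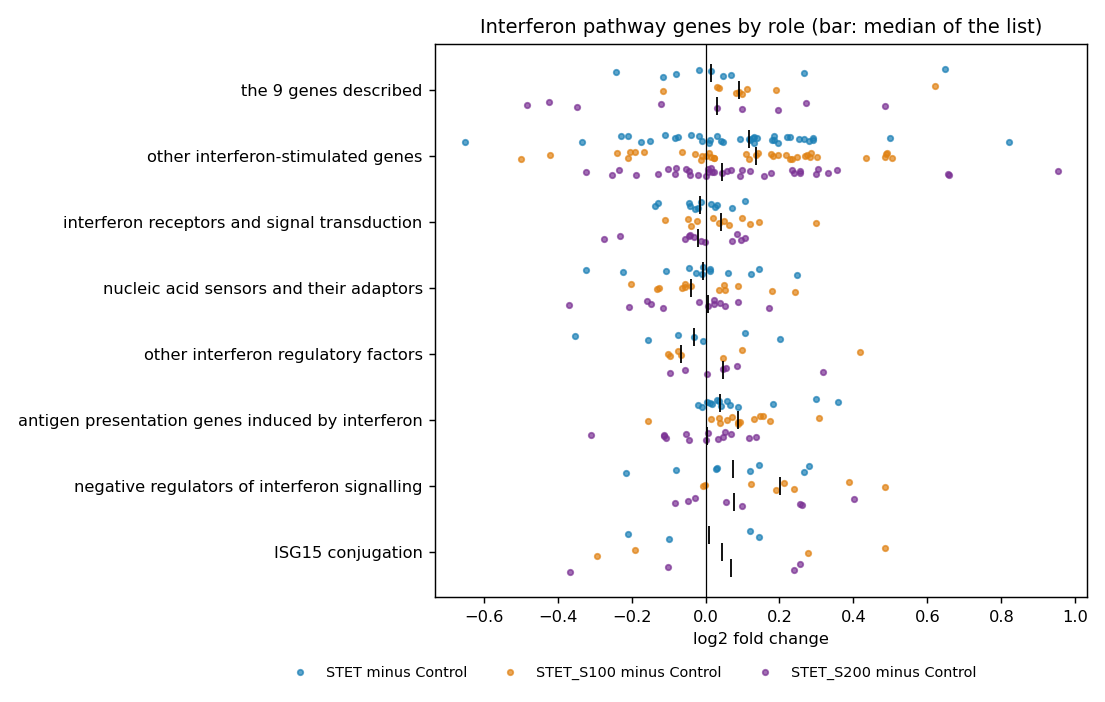
Log2 fold changes against Control (horizontal axis) of the tested genes of the interferon pathway, by role (rows), for STET, STET_S100 and STET_S200 (from top to bottom within a row), with a bar at the median of each list. Most genes lie between -0.5 and 0.5, and the medians of the 9 genes described are 0.01, 0.09 and 0.03.

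Cell types that can carry these transcripts were measured by their markers. Microglial markers, summed over 11 genes, ran from 313 to 341 CPM in STET, 296 to 339 CPM in STET_S100, 279 to 325 CPM in STET_S200 and 324 to 347 CPM in Control. Endothelial markers, summed over 10 genes, ran from 154 to 170 CPM in STET, 153 to 158 CPM in STET_S100, 143 to 149 CPM in STET_S200 and 137 to 167 CPM in Control. Lymphocyte and monocyte markers, summed over 5 genes, ran from 3.64 to 6.44 CPM over all libraries, most of it Ptprc at 3.54 to 5.72 CPM. Ccr2 had 0.399 CPM in STET_S100 1, 0.422 in STET_S200 2, 0.492 in STET_S200 3 and 0.656 in Control 3. It was at most 0.062 CPM in every other library. The libraries higher in Ccr2 all had Fabp4 above 1 CPM, as did STET 3, where Ccr2 was 0.0217 CPM. The part of these cell types in the members' levels was not tested.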

How the data were processed

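The deposited values were whole-number read counts per Ensembl gene ID, 1 column per library. Per the submitters' processing notes, the authors' tools were STAR 2.7.1a, Trimmomatic 0.39, limma, HTSeq 0.11.2 and R 4.0.2. For build, annotation release and strand setting the sources used here give nothing, and directional poly(A) libraries were read as 150 bp pairs per the labels' protocols. Here, counts were scaled by TMM, filtered with filterByExpr (minimum count 10, minimum total 15) and tested in 1 fit of 12 libraries with edgeR 4.0.16 (quasi-likelihood F test, robust dispersion, R 4.3.3), with Benjamini-Hochberg adjustment over 19492 genes in each of 7 comparisons and a threshold of 0.05. Log2 CPM used a prior count of 2. Exon lengths came from GENCODE M21. Permutation tests of correlations used 100000 resamples. Alternatives included limma-voom (limma 3.58.1) and DESeq2 1.42.0.

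Members and lists were chosen with earlier results of these data known. Named genes are all members, up to 2 genes per direction of each list with the smallest unadjusted p in a comparison with Control, the 5 genes most like the members' mean, and Ifit3b. Other genes named beside them were chosen after their values were seen. Libraries are pools of slices that share mice across groups, and p-values of group comparisons measure the spread between pools. Permutation p-values of correlations came from shuffling all libraries freely, which takes no account of groups or shared mice. Total counts ran from 36.3 to 52.8 M.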

Additional observations from a re-analysis of the deposited data

How the results depend on the processing

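No member passed the adjusted threshold under any of the 21 alternatives in any comparison. They were RLE scaling, no low-count filter, no robust dispersion, the replicate block, a term for peripheral-tissue RNA, the choroid score as a covariate, the 7 libraries low in Fabp4, limma-voom, DESeq2 and leaving out each of the 12 libraries. Over all genes and the 7 comparisons, 16 to 98 (0.0447% to 0.273%) were called without the low-count filter, 1 to 16 (0.00513% to 0.107%) by DESeq2 and at most 8 (0.0403%) under each of the others. At an unadjusted p under 0.05 Irf1 passed in STET_S200 minus Control with limma-voom, DESeq2, no robust dispersion and the peripheral-tissue term. It also passed in 3 of the omissions (STET_S100 1, STET_S200 3 or Control 1). Irf7 passed there without STET_S100 3, STET_S200 1 or Control 2, and Bst2 with the choroid score as a covariate. The 7 libraries low in Fabp4 are not counted here. The share of all genes past the unadjusted threshold was not computed for any alternative. Of 630 recomputed values of single genes, 578 kept their sign and 52 did not. The median of the members in STET_S200 minus STET moved to 0.33 in the 7 libraries low in Fabp4. Among these 7, STET_S200 is the single library STET_S200 1, so every value for that group in this setting rests on 1 library. For the correlation of Bst2 with the choroid score, RLE scaling and the 12 omissions were added after the data were seen, and r lay between 0.871 and 0.953 over the omissions.

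With the 7 libraries low in Fabp4, log2 fold changes of the other sign were -0.16 (Ifit2), -0.15 (Ifit3), -0.12 (Ifitm3) and 0.053 (Oasl2) in STET, and -0.016 (Ifit1), -0.0094 (Ifit2), -0.084 (Ifitm3) and -0.17 (Oasl2) in STET_S100. With the choroid score as a covariate they were -0.0069 (Ifitm3) in STET, -0.0041 (Irf7) and -0.041 (Oasl2) in STET_S100, and -0.017 (Ifit2), -0.031 (Ifit3) and 0.60 (Bst2) in STET_S200, and Bst2 was 0.22 in STET_S200 minus STET and 0.42 in STET_S200 minus STET_S100. With limma-voom they were -0.018 (Ifitm3) in STET, -0.0010 (Oasl2) in STET_S100 and -0.0016 (Ifit3) in STET_S200. The cause of these changes of sign was not tested. The choroid score of STET_S200 did not overlap that of Control or STET, so group and score cannot be told apart there.

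Leaving out 1 library turned the sign of some small changes. Over the omissions, changes in STET ran from -0.32 to 0.25 for Ifit1, -0.072 to 0.20 for Ifit2, -0.063 to 0.25 for Ifit3, -0.40 to 0.073 for Isg15, -0.12 to 0.15 for Ifitm3 and -0.17 to 0.19 for Oasl2. Those in STET_S100 ran from -0.11 to 0.46 for Ifit1, -0.039 to 0.23 for Ifit2, -0.25 to 0.032 for Isg15, -0.032 to 0.31 for Irf7, -0.074 to 0.14 for Ifitm3 and -0.16 to 0.24 for Oasl2. Those in STET_S200 ran from -0.018 to 0.56 for Ifit1, -0.023 to 0.25 for Ifit2, -0.14 to 0.23 for Ifit3 and -0.24 to 0.029 for Ifitm3.

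The deviations from group means did not settle whether the replicate numbers pair the libraries. Same-numbered pairs correlated at -0.285 to 0.33 (median 0.053), 7 of 18 above 0.1. Pairs of other numbers correlated at -0.348 to 0.362 (median -0.042). Of the 12 libraries, 7 correlated best with their own number, although each had fewer same-numbered than other-numbered partners. Under the replicate block the members called at the adjusted threshold stayed at 0, those at an unadjusted p under 0.05 became 1 (Bst2) in STET_S200 minus STET and 2 (Irf7 and Bst2) in STET_S200 minus STET_S100, and the medians against Control were 0.02, 0.09 and 0.03 in STET, STET_S100 and STET_S200. Isg15, Irf7 and Oasl2 rest on 28 to 95 reads per library, which limits the changes that could be seen.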
